A study of Homo sapiens with 12 samples.

Results

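The 9 genes described here are 8 annexins (ANXA1, ANXA2, ANXA3, ANXA4, ANXA5, ANXA6, ANXA7 and ANXA11) and the calcium-binding protein gene S100P. The pair ANXA3 and S100P was chosen by its measured change with SAHM1 in KOPT-K1 cells, a steep fall, and the other 7 annexins were added by family name to see what the relatives did. All 9 were measured, among 19775 genes in all, by 18 of the 41097 probe sets whose annotation held 1 symbol. ANXA3, ANXA5 and S100P had 1 probe set each, ANXA2 had 4, ANXA11 had 3, and the others had 2.

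The arrays came from HPB-ALL and KOPT-K1, 2 established human T-cell acute lymphoblastic leukaemia lines, each of them 1 line and so 1 genetic background. The 4 groups were HPB-ALL with SAHM1, HPB-ALL with the vehicle DMSO, KOPT-K1 with SAHM1 and KOPT-K1 with DMSO, with 3 cultures each. SAHM1, a hydrocarbon-stapled peptide copied from a helix of the co-activator mastermind-like and made to block the NOTCH transcription complex, was given at 20 µM for 24 h, and the DMSO cultures had an equal amount of vehicle. All cultures were grown in RPMI medium with serum, and no other agent or allele is named in the labels.

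Annexins are cytosolic proteins that bind acidic phospholipids in the presence of calcium. They share a folded core that docks on membranes and differ in their N-terminal tails, which bind partner proteins. S100 proteins are small dimers of the EF-hand class, a helix-loop-helix fold that holds calcium, and several of them clasp an annexin tail. ANXA2 binds S100A10, ANXA1 binds S100A11, and ANXA7 and ANXA11 bind the EF-hand proteins sorcin (SRI) and ALG-2 (PDCD6). In blood, ANXA3 is best known from neutrophils, and S100P, first purified from placenta, acts inside cells through ezrin and IQGAP1 and outside them on the receptor for advanced glycation end products (AGER).

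The promoters of the steeply lowered pair are shown at their annotated starts. The arrays do not show which start was used. The windows, from RefSeq on GRCh38.p14, run from 250 bases before to 50 bases after the annotated start and read 5′ to 3′ along the gene. Capitals mark matches to any of 5 motifs, which were chosen after the values were seen. ANXA3 lies at chr4:78551520-78551819 on the plus strand and S100P at chr4:6693628-6693927 on the plus strand.
ANXA3: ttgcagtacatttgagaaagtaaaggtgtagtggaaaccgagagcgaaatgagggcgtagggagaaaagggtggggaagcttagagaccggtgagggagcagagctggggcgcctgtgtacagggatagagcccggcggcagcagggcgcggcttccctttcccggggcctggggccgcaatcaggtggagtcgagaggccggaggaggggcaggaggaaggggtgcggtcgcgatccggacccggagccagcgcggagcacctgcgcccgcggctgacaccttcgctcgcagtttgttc
S100P: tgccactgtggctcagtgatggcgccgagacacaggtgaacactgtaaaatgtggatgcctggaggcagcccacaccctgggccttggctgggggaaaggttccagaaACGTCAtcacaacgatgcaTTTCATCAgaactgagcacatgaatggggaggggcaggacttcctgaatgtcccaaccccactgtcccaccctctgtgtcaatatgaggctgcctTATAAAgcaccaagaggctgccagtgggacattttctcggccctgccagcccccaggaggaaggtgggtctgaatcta

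The motifs, searched on both strands, were TGATGNAA, a composite site of ATF4 and C/EBP proteins, GTGGGAA, the site of the NOTCH partner RBPJ, the cyclic AMP response element core TGACGT, the E-box CACGTG, and the TATA box TATAAA. The S100P window held TGATGNAA on the minus strand at position -123, TGACGT on the minus strand at position -142, and TATAAA on the plus strand at position -28. The ANXA3 window held none of the 5, which says only that these letters are not in these 300 bases. Among all 35116 promoter windows, 3.62% held TGATGNAA, 6.25% GTGGGAA, 7.98% TGACGT, 7.26% CACGTG and 11.5% TATAAA. The windows also differed in base composition. The ANXA3 window was 64.7% G and C with 25 CpG dinucleotides, that of S100P was 56% with 5 CpG dinucleotides, and the medians over all windows were 58.7% and 14. RefSeq gave 13 windows for the 9 genes. Among the relatives, TATAAA stood at position -31 in both ANXA1 and ANXA2 and at -61 in 1 ANXA11 window, CACGTG at -216 in 1 ANXA4 window and at -50 in 1 ANXA6 window, and ANXA5 and ANXA7 had no match. No window of the 9 genes held GTGGGAA, and no window of the relatives held TGATGNAA or TGACGT.

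The deposited values are linear ratios of each array to its line's average DMSO array, so that 1 is the DMSO mean, and the level of a gene in DMSO cannot be read from them. Changes are log2 differences, SAHM1 minus DMSO, ± limma's standard error (n = 3 arrays in each group), and a gene was called at a Benjamini-Hochberg adjusted p under 0.05 over all 19775 genes. Because levels are lost, the labelled T-cell identity could not be checked against marker levels. Of 10 T-lineage markers, 1 was called higher (CD3G at 0.71) and 3 lower (CD7 at -0.51, CD247 at -0.27 and LCK at -0.22) in HPB-ALL, where 9.34% of all genes were called, and none was called in KOPT-K1, where 19% were. Their mean log2 ratio was -0.10 to -0.01 with SAHM1 and -0.02 to 0.01 with DMSO in HPB-ALL, and -0.15 to -0.07 with SAHM1 and -0.03 to 0.03 with DMSO in KOPT-K1. Of 11 granulocyte and monocyte markers, none was called in HPB-ALL and 1, S100A9, was called higher in KOPT-K1. With levels lost, these calls do not show whether the markers were expressed. The mean log2 ratio of those 11 was -0.07 to -0.04 with SAHM1 and -0.01 to 0.01 with DMSO in HPB-ALL, and 0.06 to 0.08 with SAHM1 and -0.03 to 0.03 with DMSO in KOPT-K1. Of 4 measured B-lineage markers 1, MS4A1, was called higher in KOPT-K1 and none in HPB-ALL, and none of 5 epithelial markers was called in either line. Some array controls moved with treatment too. The 18S ribosomal RNA probe sets had mean log2 ratios of 1.35 to 1.89 with SAHM1 and -1.65 to 1.05 with DMSO in HPB-ALL, and the 18 spiked-in control probe sets had 0.60 to 1.05 with SAHM1 and -0.02 to 0.01 with DMSO in KOPT-K1. Their part in the results below was not tested beyond the fits that carry them as a term.

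ANXA3 was not called in HPB-ALL and lay far below DMSO in KOPT-K1. In HPB-ALL its ratios were 1.24, 1.08 and 0.978 with SAHM1 and 1.08, 0.975 and 0.942 with DMSO. In KOPT-K1 they were 0.0946, 0.0827 and 0.126 with SAHM1 and 0.743, 1.13 and 1.13 with DMSO. The SAHM1 and DMSO arrays overlapped in HPB-ALL and lay far apart in KOPT-K1, where 1 DMSO array was lower than the other 2. The HPB-ALL change was 0.13 ± 0.17 (limma, adjusted p = 0.736), with a 95% interval of -0.24 to 0.51. The KOPT-K1 change of -3.30 ± 0.17, a 9.86-fold fall, was the most negative of 19775 genes, and the ratio of 0.0827 was the lowest of the 656100 values deposited. Since that change chose the gene, it has no test here. Quantile normalization of the ratios, which forces all arrays to 1 distribution, brought it to -1.99.

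S100P followed the same course by a smaller amount. Its HPB-ALL ratios were 0.840, 1.14 and 1.23 with SAHM1 and 0.940, 0.970 and 1.09 with DMSO. Its KOPT-K1 ratios were 0.238, 0.283 and 0.233 with SAHM1 and 1.04, 1.01 and 0.951 with DMSO. In HPB-ALL the SAHM1 arrays spread on both sides of the DMSO arrays, while in KOPT-K1 the 3 SAHM1 arrays lay close together below every DMSO array. The HPB-ALL change was 0.08 ± 0.13 (limma, adjusted p = 0.781), with an interval of -0.19 to 0.35, and without its SAHM1 replicate 3 it was -0.03. The KOPT-K1 change was -2.00 ± 0.13, a 3.99-fold fall that ranked 5 from the lowest of all genes, again as a description, and it was -1.14 after quantile normalization. The change in HPB-ALL minus the change in KOPT-K1 was 3.43 ± 0.24 for ANXA3 and 2.08 ± 0.18 for S100P, values that hold the KOPT-K1 change and so are not tested. These are whole cultures, in which fewer cells of a kind and less RNA per cell cannot be told apart.

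**Figure D1:**
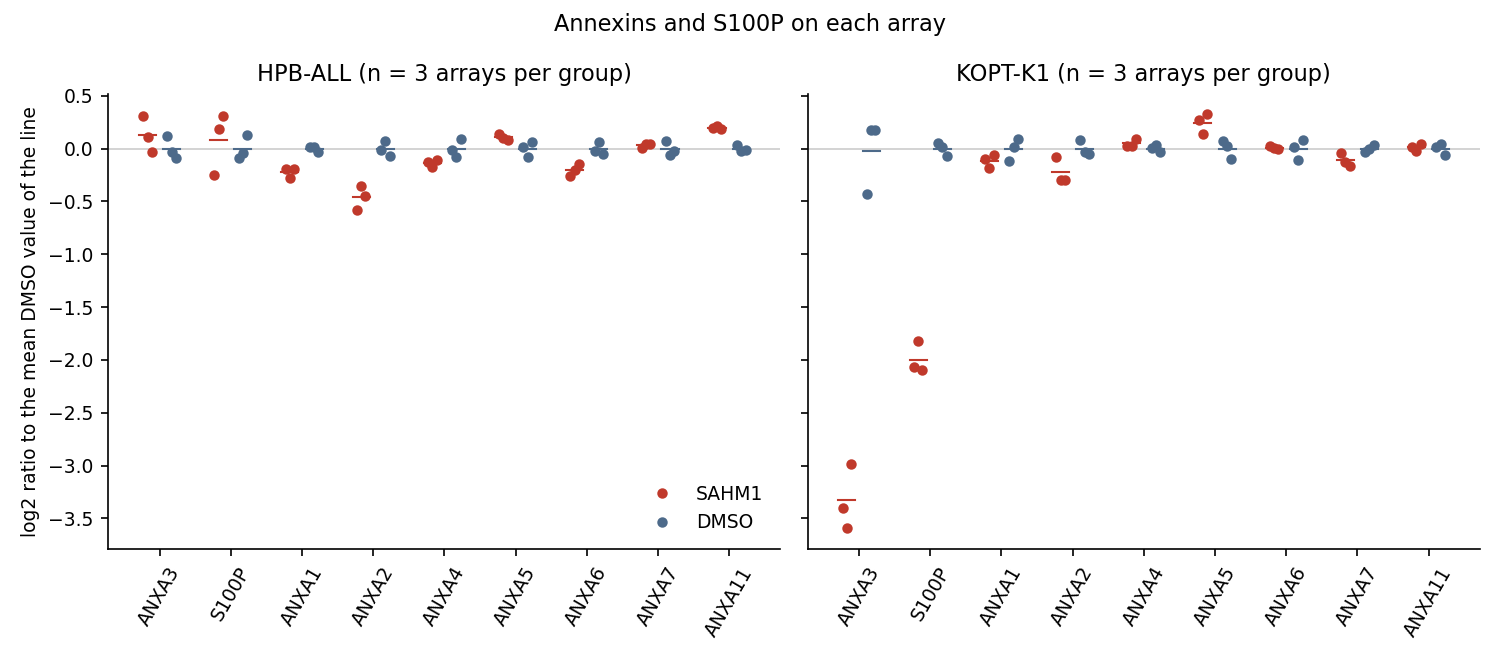
Log2 ratio to the DMSO mean of the same line (y axis) for the 9 genes (x axis) on each array, HPB-ALL in the left panel and KOPT-K1 in the right, with SAHM1 in red left of DMSO in blue and short lines for group means of 3 arrays. ANXA3 and S100P stand far below 0 in KOPT-K1 with SAHM1, while the mean changes of the other 7 annexins there run from -0.22 to 0.25.

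The other 7 annexins did not share that fall. In KOPT-K1, 1 of the 7 was called higher (ANXA5) and none lower, where 19% of all genes were called, 5.85% higher and 13.2% lower. At an unadjusted p under 0.05, for which no share over all genes was counted, the KOPT-K1 count was 2. Their KOPT-K1 changes ran from -0.22 to 0.25 with a median of 0.01, against 1.99e-05 over all genes. In HPB-ALL, 1 of the 7 was called higher (ANXA11) and 1 lower (ANXA2), where 9.34% of all genes were called, 4.96% higher and 4.38% lower. That 9.34% is at the adjusted threshold and is no background for the 5 that had an unadjusted p under 0.05. The HPB-ALL changes of the 7 ran from -0.46 to 0.20 with a median of -0.13, against -0.02 over all genes. All SAHM1 arrays lay beyond all DMSO arrays for 6 of the 7 in HPB-ALL (2 higher, 4 lower) and for 3 of the 7 in KOPT-K1 (1 higher, 2 lower). The background for such separation was 29.1% of all genes in HPB-ALL (13.4% higher, 15.7% lower) and 35.1% in KOPT-K1 (13.5% higher, 21.6% lower). None of the 7 was called for a difference between the lines (limma, adjusted p from 0.122 to 0.459), against 16.8% of all genes. For 3 of them limma's unadjusted p was under 0.05, again with no share over all genes counted.

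**Figure D2:**
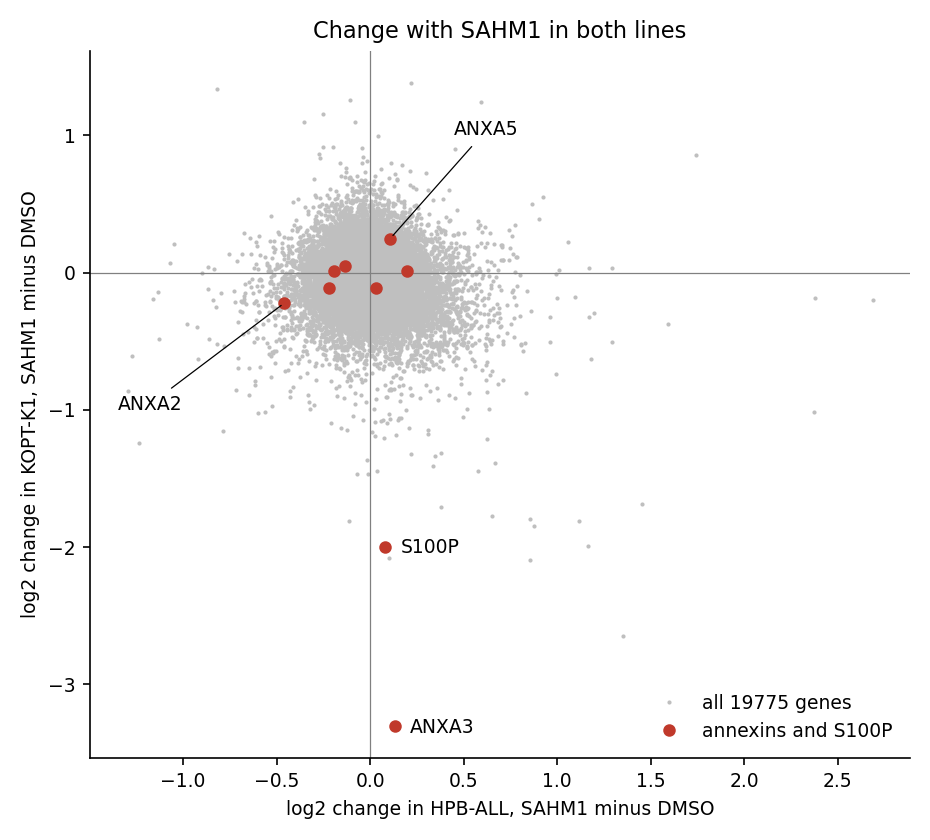
Log2 change with SAHM1 in HPB-ALL (x axis) against that in KOPT-K1 (y axis) for all 19775 genes in grey and the 9 members in red, with ANXA2, ANXA3, ANXA5 and S100P named. ANXA3 and S100P sit far down the KOPT-K1 axis near 0 on the HPB-ALL axis, and of the other 7, ANXA2 lies farthest left, at -0.46 in HPB-ALL.

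ANXA2, which joins S100A10 in a membrane complex that links vesicles to the actin cortex and binds plasminogen at the cell surface, fell in HPB-ALL. Its ratios there were 0.667, 0.783 and 0.734 with SAHM1 and 0.993, 1.05 and 0.952 with DMSO, with no overlap. The change was -0.46 ± 0.08 (limma, adjusted p = 0.00400), a 1.37-fold fall. In KOPT-K1 the ratios were 0.946, 0.815 and 0.816 with SAHM1 and 1.06, 0.975 and 0.967 with DMSO. There too all SAHM1 arrays were below all DMSO arrays, but the change of -0.22 ± 0.08 was not called (limma, adjusted p = 0.0753). Without KOPT-K1 SAHM1 replicate 1, the highest of the 3, it was -0.29 and called (limma, adjusted p = 0.0292). Only 2 of 22 alternatives called the KOPT-K1 change, with limma's adjusted p from 0.0292 to 0.972. The test of the difference gave -0.24 ± 0.11 (limma, adjusted p = 0.181), so a difference between the lines is not shown.

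The 4 ANXA2 probe sets did not move alike. Those with the suffix _x_at can bind transcripts of near-identical sequence, and ANXA2 has processed pseudogenes. Over all 54613 probe sets other than controls, the 3 _x_at sets were called lower in HPB-ALL, at -0.70 for 201590_x_at, -0.61 for 213503_x_at and -0.52 for 210427_x_at, where 5.15% of all probe sets were called. In KOPT-K1 they were at -0.32, -0.26 and -0.30, none called, where 14.6% of all probe sets were. The remaining set, 1568126_at, stood at -0.0071 in both lines, and a gene value from that set alone had no call in HPB-ALL (limma, adjusted p = 0.979, with a range of 0.00174 to 0.979 over 22 alternatives, 19 of which kept the call). The gene's average of -0.46 thus lies between 3 sets that fell and 1 that stayed near DMSO. Whether 1568126_at had signal above background cannot be read from ratios. A probe set assigned to the pseudogene ANXA2P2, 208816_x_at, fell by 0.51 ± 0.09 in HPB-ALL as a gene value (limma, adjusted p = 0.00482) and was at 0.15 ± 0.09 in KOPT-K1 (limma, adjusted p = 0.288). Its ratios were 0.636, 0.720 and 0.744 with SAHM1 and 1.09, 1.01 and 0.899 with DMSO in HPB-ALL. How the signal divides between the gene and its pseudogene copies is uncertain.

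ANXA1, the glucocorticoid-induced annexin that signals through formyl peptide receptors and is known to tune T-cell receptor signalling, was not called in HPB-ALL. Its ratios there were 0.875, 0.823 and 0.874 with SAHM1 and 1.01, 1.01 and 0.977 with DMSO, with no overlap. The change was -0.22 ± 0.07 (limma, adjusted p = 0.0536), and 1 of 22 alternatives called it, with limma's adjusted p from 0.0415 to 0.649. In KOPT-K1 it was -0.11 ± 0.07 (limma, adjusted p = 0.264), with SAHM1 ratios of 0.934, 0.881 and 0.957 against DMSO ratios of 0.923, 1.01 and 1.07, which overlapped. Of its probe sets, 201012_at fell in HPB-ALL by 0.42 ± 0.10 (limma over probe sets, adjusted p = 0.0334) and was at -0.26 in KOPT-K1, while 233011_at was at -0.02 in HPB-ALL and 0.04 in KOPT-K1. The gene average again mixes a set that moved with one whose ratio stayed near 1. Whether 233011_at had signal above background cannot be read from ratios.

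ANXA5, the annexin whose binding to exposed phosphatidylserine is used to stain dying cells, rose in KOPT-K1. Its ratios there were 1.21, 1.10 and 1.25 with SAHM1 and 1.05, 1.01 and 0.935 with DMSO, with no overlap. The change was 0.25 ± 0.07 (limma, adjusted p = 0.0249), 1.19-fold, and it rests on 1 probe set, which was not called when adjusted over all probe sets (limma, adjusted p = 0.0567). In HPB-ALL the ratios were 1.10, 1.07 and 1.06 with SAHM1 and 1.01, 0.949 and 1.04 with DMSO. The groups were apart there as well, by a small step, and the change of 0.11 ± 0.07 was not called (limma, adjusted p = 0.414). The KOPT-K1 call was lost with the spike level as a term, where the change was 0.30 ± 0.10 (limma, adjusted p = 0.128), and in the fits without KOPT-K1 DMSO replicate 2, DMSO replicate 3, SAHM1 replicate 1 or SAHM1 replicate 3, where limma's adjusted p reached 0.0937. Of 22 alternatives, 13 kept it, with limma's adjusted p from 0.0180 to 0.443.

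ANXA11, an annexin with a long proline-rich tail that tethers RNA granules to lysosomes, rose in HPB-ALL. Its ratios there were 1.14, 1.16 and 1.13 with SAHM1 and 1.02, 0.985 and 0.988 with DMSO, with no overlap. The change was 0.20 ± 0.05 (limma, adjusted p = 0.0389), 1.15-fold. The KOPT-K1 change was 0.01 ± 0.05 (limma, adjusted p = 0.899), and the groups overlapped. One probe set, 214783_s_at, rose in HPB-ALL by 0.39 (limma over probe sets, adjusted p = 0.0287) and was at -0.24 in KOPT-K1, not called. Its difference between the lines was called at 0.63 (limma over probe sets, adjusted p = 0.00846), where 11.7% of all probe sets were called. Another, 228727_at, was at 0.22 in HPB-ALL, not called, and rose in KOPT-K1 by 0.29 (limma over probe sets, adjusted p = 0.0464). The last, 206200_s_at, stayed at -0.03 in HPB-ALL and -0.01 in KOPT-K1. The HPB-ALL gene call was lost without any 1 of 5 HPB-ALL arrays (DMSO replicates 2 and 3, SAHM1 replicates 1, 2 and 3) and without KOPT-K1 DMSO replicate 1 or 2, with limma's adjusted p up to 0.131. Of 22 alternatives, 7 kept it, with limma's adjusted p from 0.0310 to 0.770.

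With the 18S level as a term, neither ANXA2 nor ANXA11 was called in HPB-ALL. ANXA2 was then at -0.45 ± 0.14 (limma, adjusted p = 0.297), the same size of change with a larger error, and ANXA11 at 0.16 ± 0.09 (limma, adjusted p = 0.754). In that fit the count of all genes called there was 52, against 1846 without the term.

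ANXA4, ANXA6 and ANXA7 were not called in either line. ANXA6, the large annexin with a duplicated core that binds plasma membrane and endosomes, had ratios of 0.836, 0.870 and 0.905 with SAHM1 and 0.987, 1.04 and 0.962 with DMSO in HPB-ALL, which did not overlap. Its changes were -0.19 ± 0.06 in HPB-ALL (limma, adjusted p = 0.0807) and 0.01 ± 0.06 in KOPT-K1 (limma, adjusted p = 0.923). The sign of the KOPT-K1 value turned in some alternatives, to -0.081 without the _s_at set. Its probe set 200982_s_at was at -0.33 in HPB-ALL and 0.10 in KOPT-K1, neither called, and the difference of -0.44 was called (limma over probe sets, adjusted p = 0.0426), while 244250_at was at -0.06 and -0.08. ANXA4, an epithelial annexin of secretory vesicles, was at -0.13 ± 0.06 in HPB-ALL, with no overlap of arrays, and 0.05 ± 0.06 in KOPT-K1 (limma, adjusted p = 0.207 and 0.608). Its 2 probe sets differed little, at -0.15 and -0.12 in HPB-ALL. ANXA7, also called synexin and known from membrane fusion during secretion, was at 0.03 ± 0.06 in HPB-ALL and -0.11 ± 0.06 in KOPT-K1 (limma, adjusted p = 0.831 and 0.212), the KOPT-K1 arrays not overlapping. The 95% intervals of the ANXA4, ANXA6 and ANXA7 changes ran from -0.33 at the lowest to 0.18 at the highest over both lines.

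**Figure D3:**
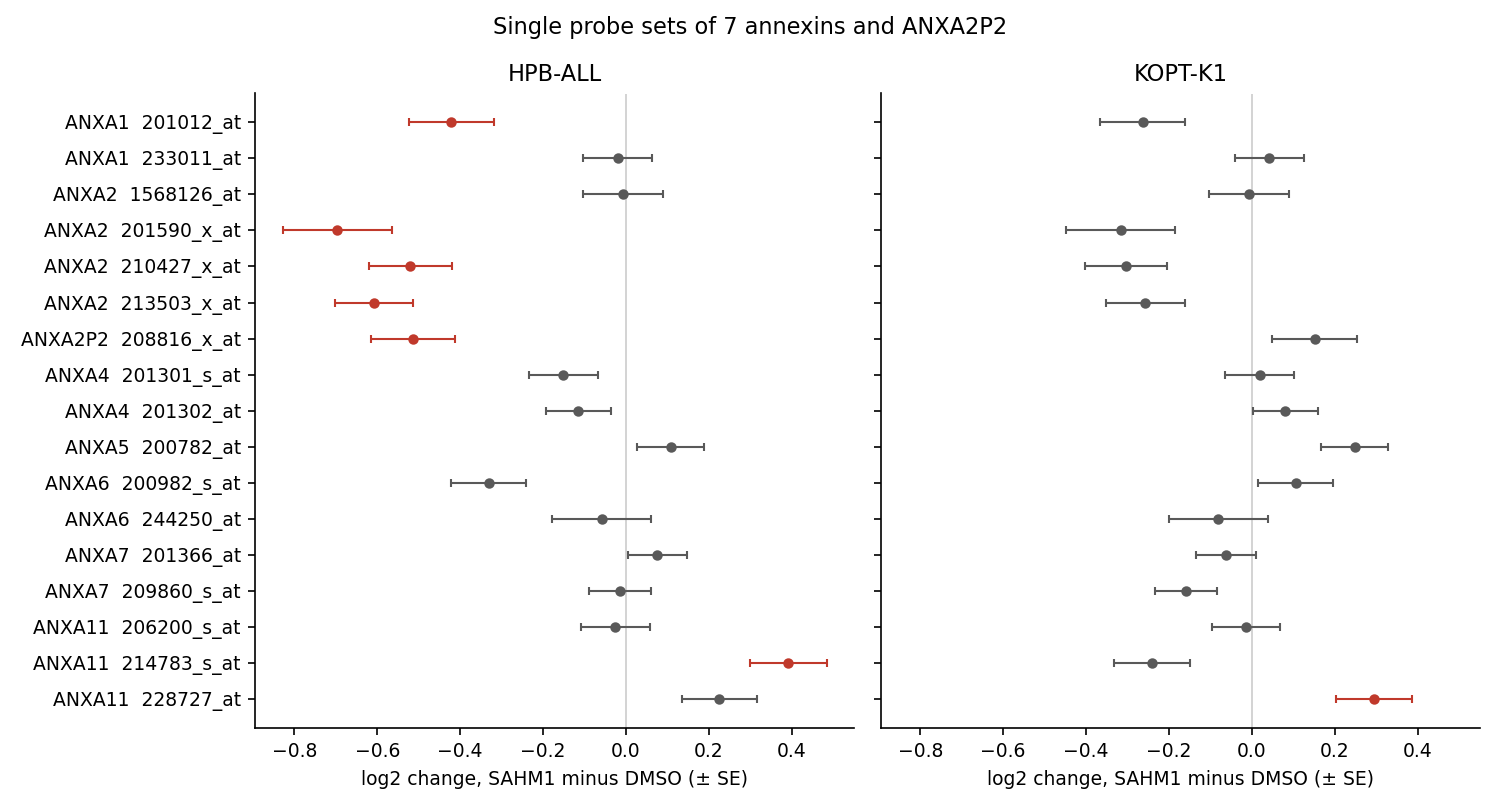
Log2 change with SAHM1 ± SE (x axis) of each probe set (y axis) of the 7 annexins other than ANXA3 and of ANXA2P2, with HPB-ALL in the left panel and KOPT-K1 in the right and called sets in red. The 3 ANXA2 sets ending in _x_at and the ANXA2P2 set lie between -0.70 and -0.51 in HPB-ALL, while 1568126_at lies at -0.0071.

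Of 17 measured partners and receptors of annexins and S100P, 1 was called higher and 1 lower in HPB-ALL, and none higher and 3 lower in KOPT-K1. These counts are near the shares over all genes, 9.34% in HPB-ALL and 19% in KOPT-K1, and the list's median changes were 0.03 and 0.01. S100A11, the partner of ANXA1, rose in one line and fell in the other. Its ratios were 1.23, 1.17 and 1.20 with SAHM1 and 1.01, 0.993 and 0.993 with DMSO in HPB-ALL, a rise of 0.26 ± 0.06 (limma, adjusted p = 0.0206). In KOPT-K1 they were 0.729, 0.724 and 0.812 with SAHM1 and 1.05, 0.977 and 0.972 with DMSO, a fall of 0.41 ± 0.06 (limma, adjusted p = 0.00103). The groups did not overlap in either line, and the difference between the responses was 0.67 ± 0.09 (limma, adjusted p = 5.46e-04). The HPB-ALL rise lost its call without any 1 of HPB-ALL DMSO replicates 2 and 3 and SAHM1 replicates 1, 2 and 3 (limma, adjusted p up to 0.0731), while 21 of 22 alternatives kept the KOPT-K1 fall. S100A11 rests on 1 probe set, whose HPB-ALL change was not called when adjusted over all probe sets (limma, adjusted p = 0.0662). S100A10, the partner of ANXA2, was not called, at -0.22 ± 0.10 in HPB-ALL and -0.02 ± 0.10 in KOPT-K1 (limma, adjusted p = 0.195 and 0.921). Sorcin (SRI), which binds ANXA7, fell by 0.33 in HPB-ALL and by 0.29 in KOPT-K1 (limma, adjusted p = 0.00823 and 0.00862), though in KOPT-K1 its probe set 208920_at stood at -0.52 and 208921_s_at at -0.07. IQGAP1, a scaffold that binds S100P, was at 0.17 in HPB-ALL (limma, adjusted p = 0.158) and fell by 0.45 in KOPT-K1 (limma, adjusted p = 0.00112). PDCD6, the partner of ANXA11, was at 0.05 in both lines and not called. Its HPB-ALL value averages probe sets that differed, with 222380_s_at at 0.35, 203415_at at -0.07 and 222152_at at -0.12, none called over all probe sets. Ezrin (EZR), AGER, AHNAK and the formyl peptide receptors FPR1, FPR2 and FPR3 were not called in either line.

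**Figure D4:**
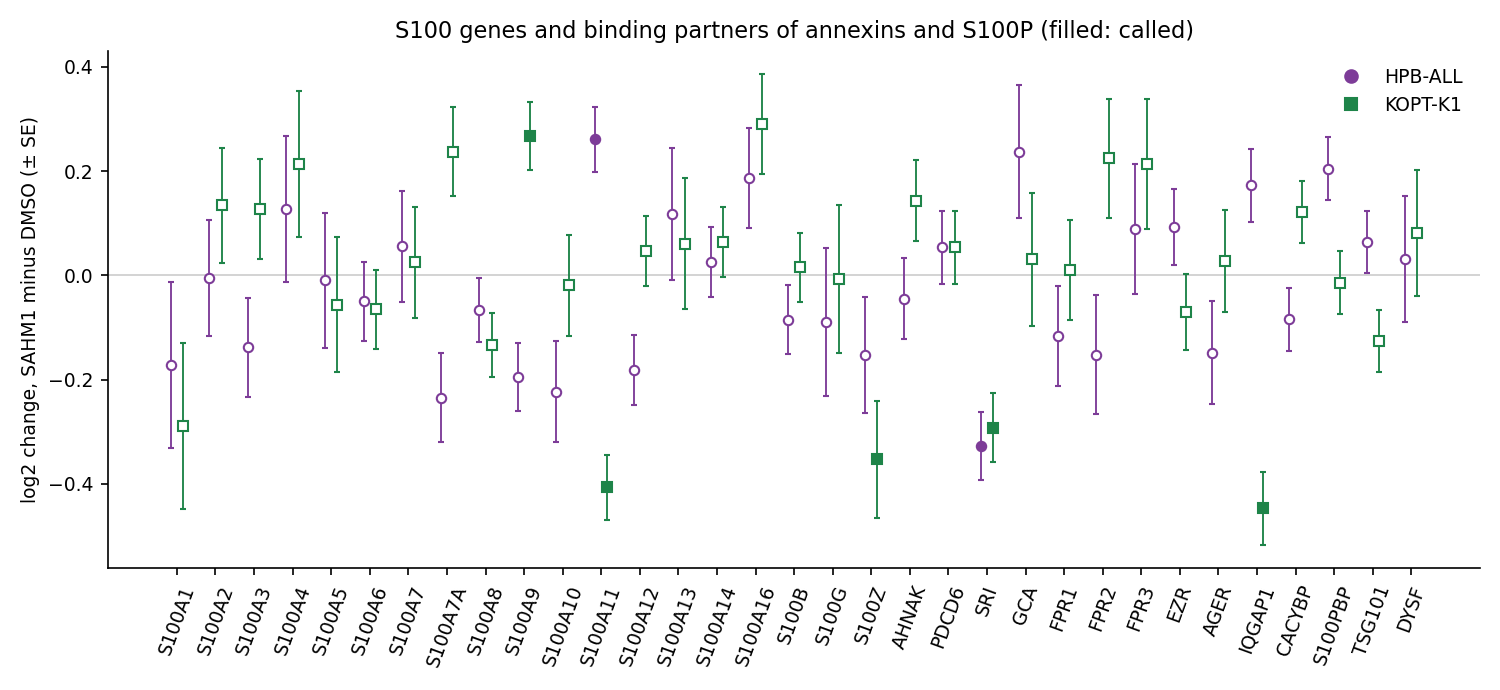
Log2 change with SAHM1 ± SE (y axis) of S100 genes and of partners of annexins and S100P (x axis), HPB-ALL as circles and KOPT-K1 as squares, filled where called. S100A11 lies at 0.26 in HPB-ALL and -0.41 in KOPT-K1, while S100A10 is called in neither.

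Of the 19 other S100 genes, 1 was called higher (S100A11) and none lower in HPB-ALL, where 4.96% of all genes were called higher and 4.38% lower. In KOPT-K1, 1 was called higher (S100A9) and 2 lower (S100A11 and S100Z), where 5.85% were called higher and 13.2% lower. The S100 medians were -0.07 in HPB-ALL and 0.02 in KOPT-K1. S100A9, a subunit of the neutrophil protein calprotectin, was at -0.20 ± 0.07 in HPB-ALL (limma, adjusted p = 0.0857) and rose by 0.27 ± 0.07 in KOPT-K1 (limma, adjusted p = 0.0132), a call lost without KOPT-K1 DMSO replicate 2 (limma, adjusted p = 0.0514). Its partner subunit S100A8 was at -0.07 in HPB-ALL and -0.13 in KOPT-K1, not called. The call of S100Z, at -0.35 in KOPT-K1, was kept by 6 of 22 alternatives. No S100 gene other than S100P fell by more than 0.41 in KOPT-K1. Of 7 further annexin-family entries, 2 were called in HPB-ALL (ANXA2R and ANXA2P2), where 9.34% of all genes were, and 1 in KOPT-K1 (ANXA2R), where 19% were. ANXA2R, a gene named for binding ANXA2, had ratios of 1.19, 1.31 and 1.22 with SAHM1 and 1.05, 1.00 and 0.949 with DMSO in HPB-ALL, and 0.865, 0.851 and 0.829 with SAHM1 and 0.980, 0.984 and 1.04 with DMSO in KOPT-K1. It rose by 0.31 ± 0.06 in HPB-ALL (limma, adjusted p = 0.00739) and fell by 0.24 ± 0.06 in KOPT-K1 (limma, adjusted p = 0.0186), with arrays apart in both, and the KOPT-K1 call was lost without DMSO replicate 3 or SAHM1 replicate 3 there (limma, adjusted p up to 0.0668). It rests on 1 probe set, whose KOPT-K1 change was not called when adjusted over all probe sets (limma, adjusted p = 0.0505). ANXA9, ANXA10 and ANXA13 were not called.

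Other calcium-binding genes give the wider setting. Of 13 copines and ferlins, which bind phospholipids through C2 domains, none was called in HPB-ALL and 3 were called lower in KOPT-K1, where 13.2% of all genes were, namely CPNE2 at -0.42, CPNE5 at -0.33 and CPNE3 at -0.21. CPNE5 lost its call without KOPT-K1 DMSO replicate 1 or 2, and CPNE2 and CPNE3 without any KOPT-K1 DMSO array. Of 18 EF-hand sensors outside the S100 family, 1 was called higher and 5 lower in HPB-ALL, and none higher and 8 lower in KOPT-K1, with medians of -0.14 and -0.16. Over all genes 4.38% were called lower in HPB-ALL and 13.2% in KOPT-K1, with medians of -0.02 and 1.99e-05. The KOPT-K1 falls among them included PPP3R1, the regulatory subunit of the phosphatase calcineurin, at -0.60 (not called without DMSO replicate 1 there), the reticulum protein RCN1 at -0.53 and the store-operated calcium sensor STIM2 at -0.40. LCP1 and ACTN1, which crosslink actin, and the reticulum protein CALU fell in both lines. LCP1 fell by 0.33 in HPB-ALL and by 0.28 in KOPT-K1, ACTN1 by 0.23 in HPB-ALL and by 0.36 in KOPT-K1, and CALU by 0.20 in HPB-ALL and by 0.34 in KOPT-K1. The HPB-ALL calls of ACTN1 and CALU were kept by 3 and 6 of 22 alternatives. CAPNS1, the small calpain subunit, fell by 0.27 in HPB-ALL and was at -0.07 in KOPT-K1. CHP1, a calcineurin-like protein, rose by 0.39 in HPB-ALL and fell by 0.35 in KOPT-K1, calls that 8 and 9 of 21 alternatives kept. With the 18S level as a term, none of the 13 calls made in HPB-ALL over all these lists and the markers remained, and with the spike level as a term 3 of 17 remained in KOPT-K1. All of these changes were smaller than those of ANXA3 and S100P in KOPT-K1. That pair was chosen for its steep fall, so this ordering follows from the choice and is not a result.

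The genes whose log2 ratios across the 12 arrays were most like those of the pair came from among 813 genes with an SD of at least 0.3. For ANXA3 they were XPOT, the exporter of transfer RNA (Pearson r = 0.992), OGT, which adds N-acetylglucosamine to proteins (0.991), BCAT1, a branched-chain amino acid transaminase (0.987), SHMT2, a mitochondrial serine and glycine enzyme (0.987), and TMEM268 (0.987). For S100P they were POLR3C, a subunit of RNA polymerase III (r = 0.984), the transcription factor MYB (0.984), IARS1, the isoleucyl-tRNA synthetase (0.984), XPOT (0.983) and BCAT1 (0.983). ANXA3 and S100P correlated with each other at r = 0.962. These arrays share the treatment, and all 8 genes have the same split, with HPB-ALL changes of 0.02 to 0.11 and KOPT-K1 changes from -2.08 for BCAT1 to -0.66 for MYB, so r mostly restates that 3 KOPT-K1 arrays stand below the other 9.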

How the data were processed

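Gene expression was measured on 12 Affymetrix arrays of 54675 probe sets. The submitters' processing notes name RMA, with no version; its annotation and other steps are not given in the sources read here. The values the authors deposited are linear ratios: in 54675 of 54675 probe sets the mean of a line's 3 DMSO arrays was 1 within 1e-06, in both lines. Their log2 was taken without a pseudocount or a filter. Array number limits the precision, and the median standard error of a change was 0.08.

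A gene's value was the mean over its probe sets with exactly 1 symbol (41097 probe sets; 1801 with several were not used, nor was 1 that pairs ANXA2 with another gene). limma 3.58.1 in R 4.3.3 was fitted to all 12 arrays with 4 groups (8 residual degrees of freedom, 12.6 after moderation), two-sided, with Benjamini-Hochberg adjustment over 19775 genes, or over 54613 probe sets other than 62 controls. The steps were tested on simulated data. Groups came from the sample titles. Each group holds 3 cultures, so the p-values reflect the spread between cultures handled alike. No pair of arrays was identical, and 0 sample columns were left out.

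The members, the gene lists and the named-gene rule (all 9 members with every probe set, list and marker genes called in any contrast, and the 5 genes most like ANXA3 and S100P by Pearson r) were chosen with earlier results of these data known. Partners not called are also named, for contrast. Alternatives were 2 other normalizations, the median of probe sets, no _x_at or _s_at sets, robust moderation, 1 line alone, a replicate block, 18S or spike levels as terms, and each array left out. The fit with both 18S and spike levels was added after seeing the data. Promoter sequences came from RefSeq (GRCh38.p14), all 9 members matching by symbol.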

Additional observations from a re-analysis of the deposited data

Results flagged for a closer look

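By the test of the difference itself (limma, HPB-ALL response minus KOPT-K1 response, adjusted p under 0.05), 13 genes from the lists and markers differed between the lines. So did 2 of the 16 probe sets of the 7 annexins other than ANXA3. For the member probe sets the differences were -0.44 for ANXA6 200982_s_at and 0.63 for ANXA11 214783_s_at, while the gene averages of both genes were not called. Among the 7 further annexin-family entries they were -0.66 for ANXA2P2 and 0.55 for ANXA2R. Among the 19 other S100 genes they were 0.67 for S100A11, -0.46 for S100A9 and -0.47 for S100A7A. S100A7A was called in neither line alone. Of the 17 partners and receptors, which include S100A11, IQGAP1 also differed, by 0.62. Of the 13 copines and ferlins, CPNE1, CPNE3 and CPNE5 differed by -0.41, 0.34 and 0.41. Of the 18 EF-hand sensors, CHP1 differed by 0.74 and STIM2 by 0.41. Of the 10 T-lineage markers, CD3G and LCK differed by 1.21 and -0.34. None of the 4 B-lineage and 5 epithelial markers was called for a difference. With the 18S level as a term 3 of the 13 gene calls were kept, with the spike level 1, with both levels 0 and with quantile normalization 1, and CPNE1 kept its call in 7 of 20 alternatives. Over all genes 16.8% were called for this difference, and over all probe sets 11.7%.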

How the results depend on the processing

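For the 7 annexins other than ANXA3, the count called in KOPT-K1 (1) was 0 with a replicate block, quantile normalization, the spike level as a term, 18S and spike levels together or 1 line alone, and 2 with the median of probe sets or without _x_at and _s_at sets; leaving out 1 array gave 0 to 1. The count of members called in HPB-ALL (2) was 1 with a replicate block, quantile normalization, the median of probe sets, the spike level or 1 line alone, and 0 without _x_at and _s_at sets, with the 18S level, or with both levels; leaving out 1 array gave 1 to 2. The count of differences between the lines was 0 in every alternative run, with 0 to 0 when 1 array was left out. Same-numbered arrays showed no clear shared deviation (r from -0.05 to 0.07). With 3 arrays a group, that cannot exclude cultures handled in pairs. Under the block, ANXA5 in KOPT-K1 had an adjusted p of 0.0615 and ANXA11 in HPB-ALL 0.119 (limma). Among the 9 members, signs turned only for values not called. In HPB-ALL, ANXA3 was -0.091 with the 18S level and -0.056 with both levels, and ANXA7 was -0.054, -0.0091 and -0.073 with 18S, spike and both levels. In KOPT-K1, ANXA6 was -0.081 without _x_at and _s_at sets and -0.021 with the spike level or both levels, and ANXA11 was -0.024 with the median of probe sets. For the difference, without _x_at and _s_at sets ANXA6 was 0.022 and ANXA11 -0.070, and with both levels ANXA7 was -0.045. With 1 array left out, ANXA6 in KOPT-K1 ran from -0.040 to 0.054, ANXA11 in KOPT-K1 from -0.017 to 0.034, and S100P in HPB-ALL from -0.030 to 0.25. The call of the T-lineage marker CD3G, higher in HPB-ALL, also turned in sign, to -0.018 with the 18S level and -0.041 with both levels. Causes were not tested. Over all genes, 52 were called in HPB-ALL with the 18S level (1846 without), 709 in KOPT-K1 with the spike level (3761 without), and 136 in KOPT-K1 and 417 in HPB-ALL after quantile normalization. Of 43 list and marker calls, 40 were kept with median centring, 33 with a replicate block, 19 with the 18S level, 10 with the spike level, 3 with both levels and 3 with quantile normalization. With 3 arrays a group, changes of the size of the relatives' lie near the limit of the test.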
